A study of Homo sapiens with 6 samples.

Results

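The 4 genes examined here, PMAIP1, AEN, TP53INP1 and PLK2, are transcriptional targets of the tumour suppressor p53 that have been linked to stress responses and cell death. They were taken by symbol from the platform's annotation table, 4 of 14884 named genes, with the probe set of highest mean signal standing for each gene, and each of the 4 had 1 probe set. They were selected on the measured siCSRP2 minus siControl difference itself, 2 in each direction, so their differences are given as a description and carry no test. RNA came from the human line Hs578T, derived from a breast carcinoma, which grows with a mesenchymal shape and is negative for the oestrogen receptor. The 3 siCSRP2 arrays held RNA of cells transfected with small interfering RNA against CSRP2, which encodes a LIM domain protein that bundles actin filaments, and the 3 siControl arrays held RNA of cells given a non-targeting RNA. Both groups went through the same lipid transfection, were moved to smaller wells 24 h later, and gave RNA after a further 48 h. The labels name 1 cell line and do not say how many siRNA sequences were used or whether replicates were separate cultures, so any p-value covers no more than the variation among these arrays, possibly technical.

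p53 is a transcription factor that is stabilised by DNA damage and other stresses and then binds paired 10-base elements (decamers) in its target genes. Its targets halt the cell cycle, repair DNA, feed back on p53 itself or start apoptosis at the mitochondrion. Several of these targets also answer to other inputs: PMAIP1 is induced by the stress factor ATF4 and by interferon signalling, and PLK2 by serum.

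The promoter windows of PMAIP1, AEN and PLK2 are shown first so that their letters can be set against the p53 decamer and the elements of the other inputs; the TP53INP1 window was not used here. Each run is the 250 bases before the transcription start in RefSeq (GRCh38.p14), written 5′ to 3′ on the gene's own strand, with matches in capitals. The PMAIP1 window lies at chr18:59899746-59899995 on the plus strand, directly before the gene. The AEN window lies at chr15:88621090-88621339 on the plus strand and inside the gene's full annotated span, since other transcripts start further upstream. The PLK2 window lies at chr5:58460087-58460336 on the minus strand, directly before the gene.
PMAIP1: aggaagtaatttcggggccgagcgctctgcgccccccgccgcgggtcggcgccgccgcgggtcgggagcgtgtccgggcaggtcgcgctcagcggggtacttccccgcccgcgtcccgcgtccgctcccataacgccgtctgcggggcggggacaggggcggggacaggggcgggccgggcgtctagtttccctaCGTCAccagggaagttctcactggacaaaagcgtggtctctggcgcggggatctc
AEN: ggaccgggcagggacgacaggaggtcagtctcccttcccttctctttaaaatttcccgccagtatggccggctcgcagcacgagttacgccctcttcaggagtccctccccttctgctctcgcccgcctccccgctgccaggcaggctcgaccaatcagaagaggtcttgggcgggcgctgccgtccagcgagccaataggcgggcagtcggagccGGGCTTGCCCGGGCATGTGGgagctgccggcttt
PLK2: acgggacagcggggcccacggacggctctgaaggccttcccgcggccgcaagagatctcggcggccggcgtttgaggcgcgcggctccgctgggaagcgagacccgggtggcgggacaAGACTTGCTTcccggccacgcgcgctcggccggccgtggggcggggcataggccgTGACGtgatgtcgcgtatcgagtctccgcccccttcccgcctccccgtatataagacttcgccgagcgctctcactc

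In the PMAIP1 window the capitals mark the core of the cAMP response element, TGACG, read on the opposite strand at 55 to 51 bases before the start. In the AEN window they mark a p53 decamer at 34 to 25 bases before the start and the 10 bases after it, which together form adjacent decamers with 2 mismatches. In the PLK2 window they mark a p53 decamer at 132 to 123 bases before the start and the sequence TGACG at 77 to 73 bases before it. Both strands were searched for the p53 decamer and for 2 decamers up to 13 bases apart, for TGACGTCA and TGACG (the second lies inside the first), for the ATF4 element TGATGNAA, for the SRF site known as the CArG box, for the interferon-stimulated response element and for TATAAA. No other match to these letters occurred in the 3 windows. Over 35116 RefSeq windows of equal length, 5.57% held a p53 decamer, 0.0256% held the full site without mismatch and 21.2% held TGACG. The shares were 1.65% for TGACGTCA, 3.14% for the ATF4 element, 1.16% for the CArG box, 3.02% for the interferon-stimulated response element and 10.7% for TATAAA. Adjacent decamers with at most 2 mismatches, a search added after the sequences were seen, occurred in 0.561% of the windows. The PMAIP1 window held no p53 decamer, and its best adjacent pair had 3 mismatches, which 4.36% of all windows matched or bettered. The best adjacent pair in the PLK2 window had 5 mismatches, matched or bettered by 64.5%. A match is a description of the letters and does not show that a factor was bound.

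The whole data set sets limits on every value below. The knockdown target CSRP2 gave log2 signals of 3.25, 3.76 and 4.26 in siCSRP2 and of 3.69, 4.01 and 4.35 in siControl, and this difference did not pass (log2 difference -0.26, SE 0.26, adjusted p = 0.583 by limma). CSRP2 was lower in siCSRP2 between all 3 pairs of arrays of equal number, but did not pass with the replicate number as a block either (SE 0.12, adjusted p = 0.188). The target thus gives the labels no check past the threshold, and the name siCSRP2 stands for the arrays labelled that way. The array siControl 3 stood apart from its group: across genes it correlated with the siCSRP2 arrays at 0.960 to 0.970, beside 0.966 and 0.968 with the other controls, which correlated with each other at 0.988. Of 30 markers of the cell line and of other cell types, 17 were measured. All 4 measured mesenchymal markers were bright and fell in siCSRP2: AXL (log2 difference -1.73, adjusted p = 0.00833), VIM, a mesenchymal filament (-0.82, 0.0149), FN1 (-0.59, 0.0299) and THY1 (-0.77, 0.0320). Over all genes 6.54% fell and 0.8% rose. The listed mesenchymal markers CDH2, SPARC, COL1A1, COL1A2 and COL6A1 were not measured. None of the 13 other measured markers passed. Among them the bright epithelial marker KRT18 was also lower on every siCSRP2 array than on any siControl array (-0.74, adjusted p = 0.0635), a larger difference than that of FN1. Of the luminal markers the oestrogen receptor, ESR1, with FOXA1 and PGR had means below 2.99, the median of all gene means, and GATA3 had a mean above it (3.74). Of the epithelial markers EPCAM (3.28), KRT8 (3.69) and KRT18 (7.74) lay above it and CLDN4, CLDN7 and KRT19 below, as did the leukocyte marker CD14 and the endothelial markers PECAM1 and VWF. The part of the mesenchymal markers' fall in the results below was not tested.

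PMAIP1 and AEN were higher, and TP53INP1 and PLK2 lower, on all siCSRP2 arrays than on any siControl array. All 4 genes passed in the limma fit at an adjusted p under 0.05. Nothing is read from that count, since this contrast chose the genes, and 0.8% of all genes passed as higher and 6.54% as lower. Groups that did not overlap were also frequent among all genes, at 11.5% higher and 16.2% lower. In a mixed population of cells, a change in the share of cells that hold a transcript and a change in its amount per cell cannot be told apart.

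PMAIP1 encodes NOXA, a BH3-only protein of the BCL2 family that binds the survival protein MCL1 and promotes its degradation. Its probe set (16852683) measured 9.29, 9.81 and 9.88 in siCSRP2 cells, against 7.88, 7.92 and 8.92 in siControl cells. The groups did not overlap, and siControl 3 was about 1 log2 unit above both other controls. The group means were 9.66 ± 0.32 for siCSRP2 and 8.24 ± 0.59 for siControl (SD, n = 3 each), a log2 difference of 1.42 (SE 0.28) or 2.67-fold. By size this was the 14th largest rise of the 14884 genes. Between arrays of equal replicate number the differences were 1.41, 1.88 and 0.96. Leaving out siControl 3 gave 1.76 (3.38-fold), and leaving out siControl 1 gave the smallest value, 1.24 (2.36-fold).

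AEN encodes the apoptosis-enhancing nuclease, a nuclear exonuclease. Its probe set (16804478) gave log2 signals of 4.01, 4.19 and 4.27 for siCSRP2 and of 3.43, 3.56 and 3.83 for siControl. The groups did not overlap, though the gap between the lowest siCSRP2 array and siControl 3 was small beside the range within siControl. The means were 4.16 ± 0.13 for siCSRP2 and 3.60 ± 0.20 for siControl (SD, n = 3 each), a log2 difference of 0.55 (SE 0.14) or 1.47-fold, the smallest of the 4 genes. Ranked within each group, the arrays stood in the same order for AEN as for PMAIP1. AEN was past the threshold in 1 of the 6 fits that left an array out, the fit without siControl 3, and it did not pass after median centring (0.47, adjusted p = 0.0604) or with limma's trended and robust prior (adjusted p = 0.0701).

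TP53INP1 encodes a p53-inducible nuclear protein that acts with the kinase HIPK2 on p53 and binds ATG8 proteins in autophagy. Its probe set (17079317) measured 3.07, 3.28 and 3.13 in siCSRP2, against 4.12, 4.16 and 3.84 in siControl. The siCSRP2 arrays lay close together and siControl 3 was the lowest control, again the control nearest to siCSRP2. The means of 3.16 ± 0.11 in siCSRP2 and 4.04 ± 0.18 in siControl (SD, n = 3 each) differed by -0.88 on the log2 scale (SE 0.13), a 1.84-fold lower signal. The siCSRP2 mean lay near the median of all gene means, 2.99, so a fold at this level can understate the change. Same-numbered arrays differed by -1.06, -0.89 and -0.71.

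PLK2 encodes a polo-like kinase that is induced by serum and by p53 and takes part in centriole duplication. Its probe set (16996433) measured 6.82, 5.97 and 5.95 in siCSRP2 cells and 7.38, 7.28 and 7.40 in siControl cells. The controls were tightly grouped, siControl 3 included, while siCSRP2 1 lay between the other siCSRP2 arrays and the controls. On the control side PLK2 thus differed from the other 3 genes, for which siControl 3 stood nearest to siCSRP2. The siCSRP2 array nearest to the controls was siCSRP2 1 for PMAIP1 and AEN as well. The means were 6.24 ± 0.50 for siCSRP2 and 7.35 ± 0.06 for siControl (SD, n = 3 each), with a log2 difference of -1.11 (SE 0.22) or 2.15-fold lower. Without siCSRP2 1 the difference was -1.39 (2.63-fold), and with other arrays left out it ran from -1.14 to -0.96.

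**Figure D1:**
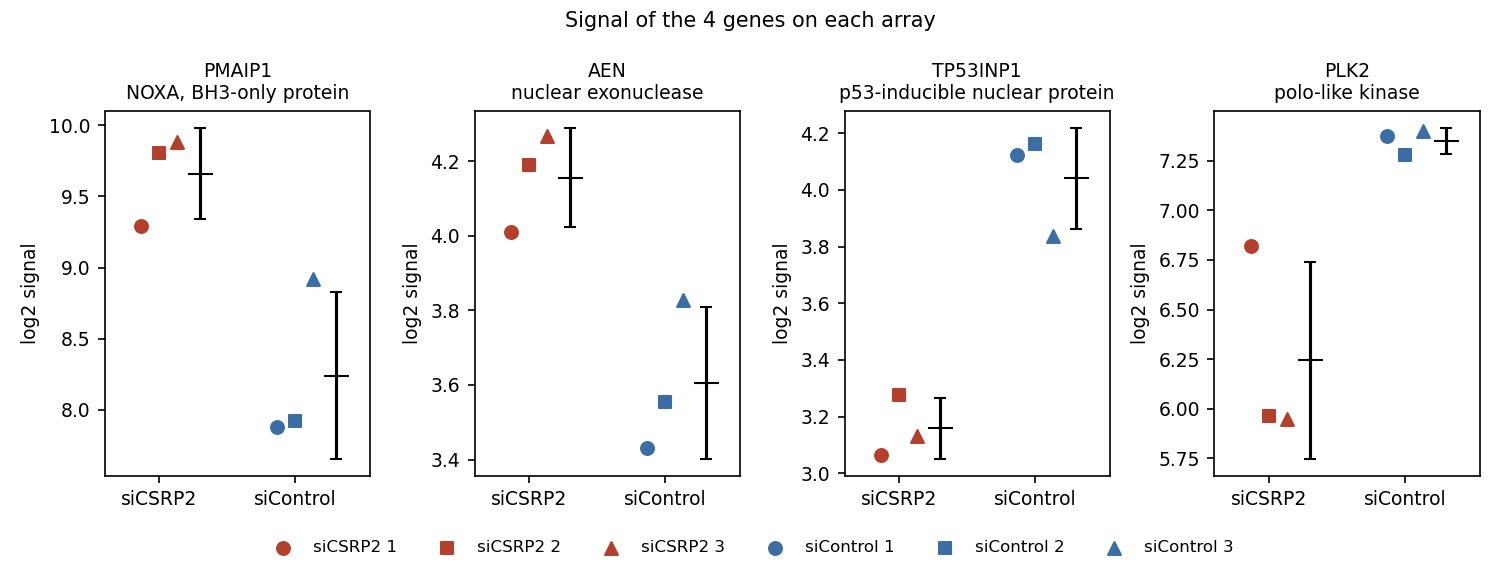
Log2 signal (vertical axis, a separate scale for each gene) of PMAIP1, AEN, TP53INP1 and PLK2 on the 3 siCSRP2 arrays and the 3 siControl arrays; markers give the replicate number, and bars beside them the mean and SD. The siCSRP2 points lie above the siControl points for PMAIP1 and AEN and below them for TP53INP1 and PLK2, and siControl 3 is the control nearest to siCSRP2 for each gene but PLK2.

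Other scalings of the arrays kept the direction of each of the 4 differences. After quantile normalization, cyclic loess and median centring the PMAIP1 difference ran from 1.33 to 1.49 and the AEN difference from 0.47 to 0.68. The TP53INP1 difference ran from -0.97 to -0.80 and the PLK2 difference from -1.19 to -1.0. How many of the 4 passed depended on single arrays: 0 without siControl 1 or without siControl 2, 1 without siCSRP2 2 or without siCSRP2 3, 3 without siCSRP2 1 and 4 without siControl 3.

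**Figure D2:**
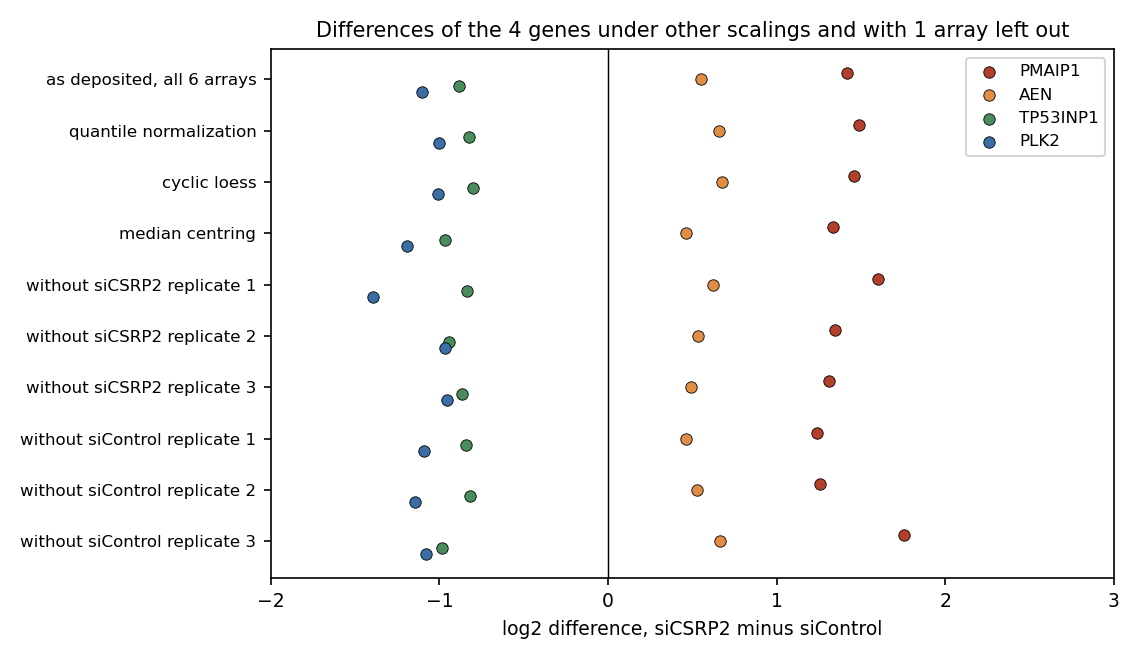
Log2 difference, siCSRP2 minus siControl (horizontal axis), of the 4 genes on the values as deposited, after 3 other scalings, and with each array left out in turn. PMAIP1 and AEN stay above 0 and TP53INP1 and PLK2 below 0 throughout, and PMAIP1 is farthest from 0 without siControl 3 (1.76).

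The share of other p53 targets that passed was near that of all genes. Of 44 further targets listed, 25 were measured under their symbols, and of these 0 rose, 1 fell and 24 stayed short of the threshold (limma, adjusted over all genes), where 0.8% of all genes rose and 6.54% fell. At an unadjusted p under 0.05, 3 were higher and 4 lower, where 6.32% of all genes were higher and 17.4% lower. Limma with a trended and robust prior called 0 higher and 1 lower, beside 0.954% and 6.23% of all genes, and the lower gene was a different one, TRIAP1 in place of ASCC3. Their median log2 difference was -0.07, beside 0.02 over all genes. The p53 antagonist MDM2 and the cell cycle inhibitor CDKN1A had no probe set listed under those symbols and were not analysed here.

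Among 5 measured targets of cell cycle arrest and feedback, none passed. The largest differences were those of PLK3, a stress-activated polo-like kinase (0.49, SE 0.16, adjusted p = 0.0989), and SFN, the 14-3-3 protein that holds cells before mitosis (-0.45, SE 0.17, adjusted p = 0.140). The stress cytokine GDF15, a sensitive p53 target in many cells, measured 4.77, 4.60 and 4.22 in siCSRP2 and 4.56, 4.84 and 4.81 in siControl, and the groups overlapped (log2 difference -0.21). CCNG1, cyclin G1, differed by 0.05.

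Among 11 measured targets of cell death none passed either on group alone. BBC3, which encodes PUMA, the BH3-only protein most often named beside NOXA, measured 3.68, 3.65 and 3.58 in siCSRP2 and 3.89, 3.63 and 3.90 in siControl. Its groups overlapped (log2 difference -0.17, SE 0.12, 95% interval -0.43 to 0.09, adjusted p = 0.415). BAX, a pore-forming effector, differed by 0.06 (SE 0.11, 95% interval -0.20 to 0.32, adjusted p = 0.787). TRIAP1, a small inhibitor of apoptosome assembly, differed by -0.58 (SE 0.18) on a dim probe set, and did not pass on group alone (adjusted p = 0.0864). It measured 2.758, 2.314 and 2.43 in siCSRP2 against 3.367, 3.118 and 2.764 in siControl. The groups did not overlap, as in 16.2% of all genes that were lower, but siCSRP2 1 and siControl 3 were almost equal. TRIAP1 passed in the replicate-block fit (0.0178) and with the trended and robust prior (0.0492). Of the 6 fits that left an array out, TRIAP1 passed in 1, the fit without siControl 3 (0.0125).

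Of 9 measured targets of repair and metabolism, ASCC3, a helicase subunit that serves alkylation repair, fell. It measured 4.17, 4.41 and 4.57 in siCSRP2 against 4.95, 5.08 and 4.94 in siControl (log2 difference -0.61, SE 0.13, adjusted p = 0.0286). That call was lost after quantile normalization (-0.44, adjusted p = 0.0880), after cyclic loess (-0.45, 0.0703), with the trended and robust prior (0.0543) and in 4 of the 6 fits that left an array out. RRM2B, the p53-inducible ribonucleotide reductase subunit, just missed the threshold (-0.67, SE 0.17, adjusted p = 0.0502) and passed with the replicate block (0.0154). With that block 0 of the 25 targets rose and 4 fell, ASCC3, RRM2B, TRIAP1 and FBXO22, where 2.67% of all genes rose and 13.1% fell.

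The p53 circuit, meaning its relatives, kinases, cofactors and antagonists, had 10 measured genes, none of them past the threshold and a median difference of 0.00. The acetyltransferase EP300 (0.60) and HIPK2 (0.39) were past it with the replicate block as higher (adjusted p = 0.0105 and 0.0411), and the deubiquitinase USP7 (-0.41) and the checkpoint kinase ATR (-0.41) as lower (0.0357 and 0.0415). With that block 2.67% of all genes rose and 13.1% fell. Of the 6 fits on group alone that left an array out, EP300, HIPK2 and USP7 passed in 0 and ATR in 1. HIPK2, the kinase partner of TP53INP1, measured 7.59, 8.13 and 8.21 in siCSRP2 against 7.25, 7.73 and 7.79 in siControl, and these groups overlapped. MDM4, the p53 inhibitor, differed by 0.17 (SE 0.12, adjusted p = 0.402).

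**Figure D3:**
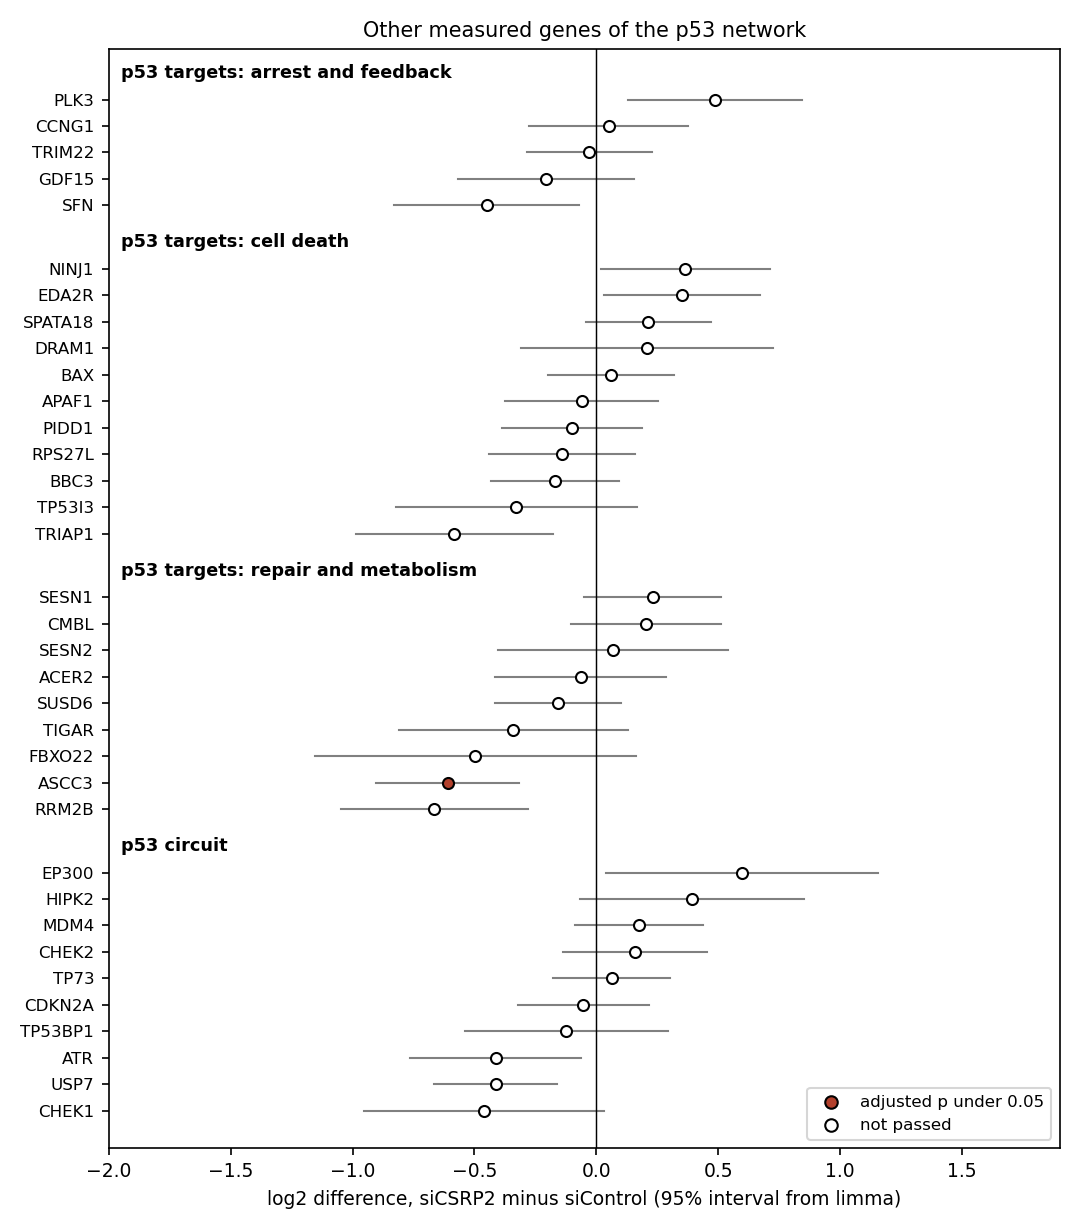
Log2 difference, siCSRP2 minus siControl (horizontal axis), of each measured p53 target and p53 circuit gene other than the 4, with its 95% interval from limma; filled points passed at an adjusted p under 0.05. ASCC3 is the only filled point, and the points lie on both sides of 0.

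NOXA acts through the BCL2 family, so its relatives were examined next. Of 5 measured survival members none passed and none reached an unadjusted p under 0.05, with differences of 0.07 to 0.16 (the trended and robust limma fit also called none). MCL1, the main partner of NOXA, measured 6.84, 6.73 and 6.85 in siCSRP2 and 6.46, 6.50 and 7.03 in siControl, with siControl 3 the highest of all 6 arrays (log2 difference 0.14, SE 0.16, 95% interval -0.22 to 0.51, adjusted p = 0.629). Among 6 other BH3-only genes 1 fell and none rose, where 6.54% of all genes fell and 0.8% rose. The gene that fell, BCL2L11, which encodes BIM, measured 2.65, 2.65 and 2.56 in siCSRP2 against 3.16, 3.29 and 2.93 in siControl. Its log2 difference was -0.51 (SE 0.12, adjusted p = 0.0427), on a dim probe set, and it passed in 1 of the 6 fits that left an array out, the fit without siControl 3. BAD (-0.30, adjusted p = 0.117) and BID (-0.21, adjusted p = 0.303) also had groups that did not overlap, with the siCSRP2 arrays lower, as did 16.2% of all genes.

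The pore-forming effectors BAK1 (-0.49, SE 0.17) and BOK (-0.49, SE 0.14) did not pass (adjusted p = 0.124 and 0.0649) and were past the threshold as lower with the replicate block (0.0383 and 0.0200). With that block 13.1% of all genes fell. BAK1 and BOK each passed in 1 of the 6 fits on group alone that left an array out. None of the 14 measured BCL2 family genes other than PMAIP1 passed as higher, where 0.8% of all genes did. Downstream, 4 of 14 listed genes of the caspase cascade were measured. BIRC5, survivin, which inhibits apoptosis and also serves chromosome segregation in mitosis, fell 2.00-fold, with 3.59, 3.81 and 3.55 in siCSRP2 against 4.66, 4.79 and 4.51 in siControl (log2 difference -1.0, SE 0.12, adjusted p = 0.00644). BIRC5 passed in all 6 fits that left an array out. XIAP (0.20), BIRC2 (-0.19) and APAF1 (-0.06) did not pass.

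The polo-like kinases differed among themselves. Of the 4 measured besides PLK2, 2 fell and 0 rose, where 6.54% of all genes fell and 0.8% rose. PLK1, which drives entry into and passage through mitosis, fell 2.42-fold, with 4.57, 5.28 and 4.52 in siCSRP2 against 6.29, 6.36 and 5.55 in siControl (log2 difference -1.27, SE 0.26, adjusted p = 0.0263). PLK4, the kinase that starts centriole duplication, fell 1.70-fold, with 2.9, 2.94 and 2.9 in siCSRP2 against 3.73, 3.94 and 3.38 in siControl (-0.77, SE 0.15, adjusted p = 0.0210). For both, siControl 3 was the control nearest to siCSRP2, which was not so for PLK2. Each of these calls held in 2 of the 6 fits that left an array out, and both were lost without siControl 1 and without siControl 2. PLK3 measured 4.59, 4.44 and 4.57 in siCSRP2 against 3.73, 4.08 and 4.33 in siControl, higher without overlap but not past the threshold. Of all genes 11.5% were higher without overlap. PLK5 differed by 0.02 with overlapping groups.

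Of the exonucleases most like AEN, only ISG20 was measured, and it did not pass (0.22, SE 0.14, adjusted p = 0.404). It shared with AEN a high value on siControl 3, 4.03, beside 3.60 and 3.65 on the other controls and 3.83, 4.11 and 3.99 on the siCSRP2 arrays. TP53INP2, the close relative of TP53INP1, ranged widely within both groups, 4.12, 5.47 and 5.09 in siCSRP2 and 4.59, 5.15 and 4.71 in siControl (0.08, SE 0.31, 95% interval -0.63 to 0.79, adjusted p = 0.905). None of 7 genes of the TP53INP2 and ATG8 list passed, and 1 reached an unadjusted p under 0.05 as higher, beside 6.32% of all genes. That gene, GABARAPL2, an ATG8 protein, measured 6.58, 6.88 and 7.17 in siCSRP2 against 6.38, 6.21 and 6.35 in siControl (0.57, adjusted p = 0.0624). It passed as higher with the replicate block (0.0300), after quantile normalization (0.0354), after cyclic loess (0.0369) and with the dimmer genes left out (0.0496). GABARAPL2 did not pass with the trended and robust prior (0.0838) or after median centring (0.0856). It passed in 2 of the 6 fits that left an array out.

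**Figure D4:**
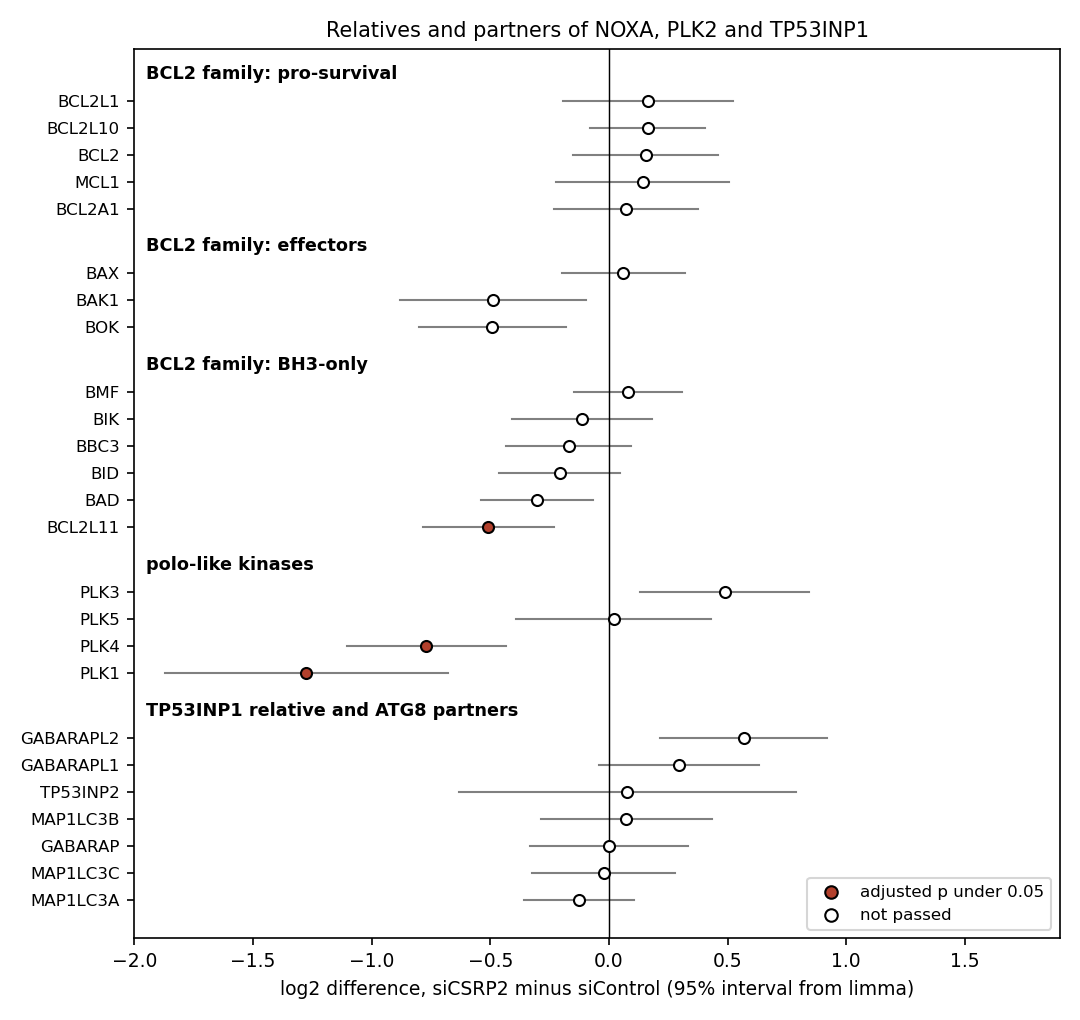
Log2 difference, siCSRP2 minus siControl (horizontal axis), with its 95% interval from limma, for BCL2 family genes, polo-like kinases, and TP53INP2 with the ATG8 genes; filled points passed at an adjusted p under 0.05. BCL2L11, PLK4 and PLK1 are filled and lie below 0.

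Inputs other than p53 that are known to induce these genes were read from 2 further lists. Of 9 measured genes of ATF4 and the integrated stress response, 1 rose and 1 fell, where 0.8% of all genes rose and 6.54% fell. Asparagine synthetase, ASNS, rose 1.72-fold, with 6.12, 6.62 and 6.46 in siCSRP2 against 5.44, 5.59 and 5.83 in siControl (log2 difference 0.78, SE 0.16, adjusted p = 0.0260). TRIB3, a pseudokinase induced by the same pathway, fell (log2 difference -0.58, SE 0.12, adjusted p = 0.0249), a call lost after quantile normalization (-0.43, 0.0913) and cyclic loess (-0.45, 0.0747) and with the trended and robust prior (0.0570). The calls of both genes were lost without siControl 1, siControl 2, siCSRP2 2 or siCSRP2 3. ATF4 (0.10, adjusted p = 0.728) and DDIT3, which encodes CHOP (-0.11, adjusted p = 0.843), did not pass. ATF3, another stress-induced factor, measured 5.85, 6.05 and 6.16 in siCSRP2 against 4.79, 5.04 and 6.04 in siControl (0.73, adjusted p = 0.159, and 0.0337 with the replicate block).

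The immediate early genes, to which PLK2 is often counted, lay on the other side of 0 from PLK2. None of 13 measured genes passed, and 5 reached an unadjusted p under 0.05 as higher, beside 6.32% of all genes. KLF4 (1.06, adjusted p = 0.0514) passed in the trended and robust fit (0.0354) and with the dimmer genes left out (0.0283). It also passed after quantile normalization (0.0354) and cyclic loess (0.0356), but not after median centring (0.0568). Of the 6 fits that left an array out, KLF4 passed in 1, the fit without siControl 3 (0.00244). In that fit 6 genes of the list rose, where 427 of all 14884 genes rose. All 13 differences were above 0 (11 without siControl 1 or without siCSRP2 1), with a median of 0.42 (0.27 without siControl 1 and 0.74 without siControl 3). With the replicate block 5 rose, where 2.67% of all genes rose: KLF4 (1.06), IER3 (0.89), JUN (0.64), JUNB (0.52) and FOSB (0.42). With each gene set against its siControl mean, the median over this list stood at 0.44, 0.59 and 0.45 in siCSRP2 and at -0.38, -0.08 and 0.51 in siControl 1, 2 and 3. On the same scale PMAIP1 lay at 1.05, 1.57 and 1.64 in siCSRP2 and at -0.36, -0.32 and 0.68 in the same controls. The part of siControl 3 in these results was not tested beyond leaving it out.

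**Figure D5:**
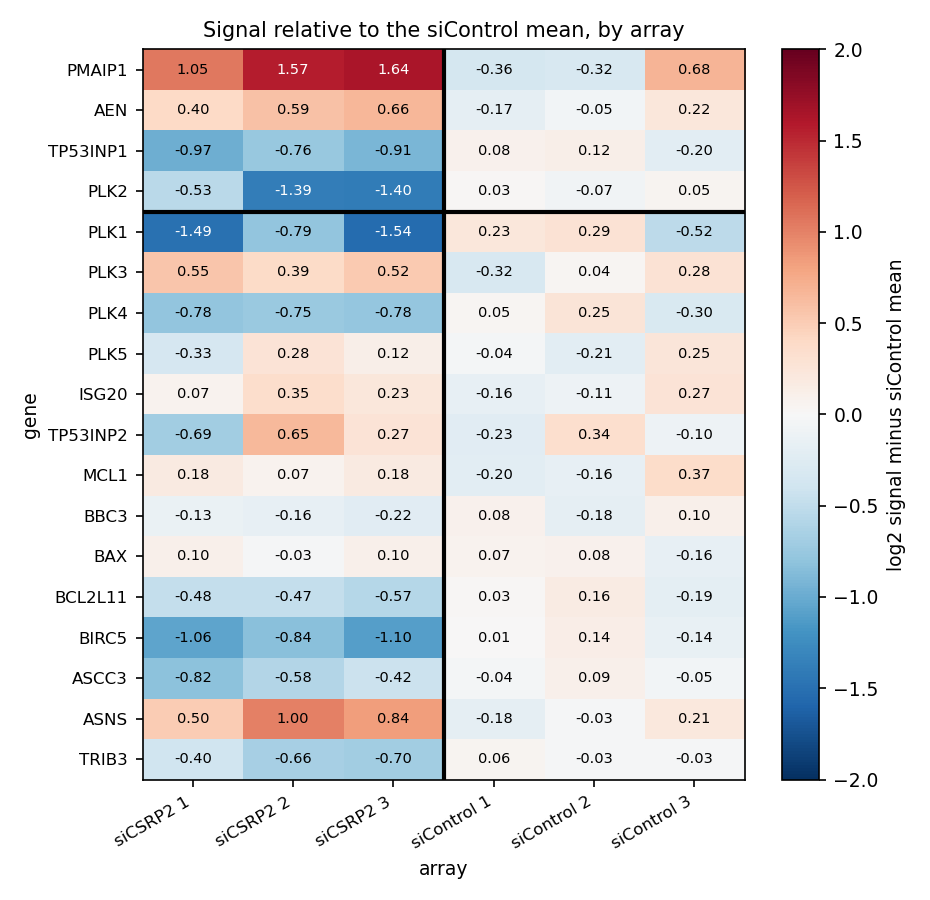
Log2 signal minus the siControl mean of the same gene (colour and printed value) for the 4 genes above the line and 14 related genes below it, by array, with siCSRP2 left of siControl. On siControl 3, PMAIP1 (0.68), AEN (0.22) and TP53INP1 (-0.20) lean toward their siCSRP2 values, while PLK2 (0.05) does not.

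The genes whose signal followed each of the 4 most closely were found by Pearson's r over the 6 arrays, among genes brighter than the median. These values are a description over arrays that fall into 2 groups, and carry no test. PMAIP1 was followed most closely by the kinase gene HIPK3 (r = 0.9997, log2 difference 0.59), then by LEMD3 (0.9973), ANKRD17 (0.996), SLAMF7 (0.9957) and SKIL (0.9935). AEN was followed by ANKRD17 (0.9963), TBPL1 (0.9957), LTN1 (0.9941), C4orf51 (0.9924) and PMAIP1 itself (0.992). TP53INP1 was followed by VAT1 (0.9988, log2 difference -0.78), PTGFRN (0.9982), CEP89 (0.9975), MOB3A (0.9972) and PDE7B (0.997). PLK2 was followed by the ERK phosphatase DUSP6 (0.9945, log2 difference -0.77), POPDC1 (0.994), TBL2 (0.9935), ZNF623 (0.9924) and TMOD1 (0.9912). ANKRD17 stood in the lists of both PMAIP1 and AEN, and the lists of TP53INP1 and PLK2 shared no gene.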

How the data were processed

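Affymetrix HuGene 2.0 arrays measured RNA from 6 samples of Hs578T cells, 3 siCSRP2 and 3 siControl, grouped and numbered by their titles. The authors deposited 1 log2 value per probe set and array; base 2 was inferred from the range of the values. The software Partek, with no version, is all that is named, per the submitters' processing notes. How signals were background-corrected and normalized, and the genome build, is not given in the sources used here. No detection calls were used. Of 53617 probe sets, 16098 had 1 gene symbol in the platform's annotation, 0 had several and 37519 had none listed there and stay unnamed. Current symbols came through gene identifiers from RefSeq (GRCh38.p14, all 16098 matched). The probe set with the highest mean stood for each of 14884 genes.

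The comparison used limma 3.58.1 (lmFit and eBayes on group alone, R 4.3.3; Benjamini-Hochberg over all genes, threshold 0.05, two-sided). It was first tested on simulated data. The number of arrays limits the precision. The 4 genes and the 13 lists were chosen with earlier results of these data known. Of 129 listed genes, 47 were not found under their symbols. Named are the 4 genes, CSRP2, list members past the threshold, MDM2, CDKN1A, MCL1, BBC3, BAX, the relatives of AEN, TP53INP1 and PLK2, and the 5 genes closest in pattern to each of the 4; other named genes were chosen after their values were seen.

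Arrays of equal number deviated from their group means together (r over genes 0.305, 0.187 and 0.321; other pairs -0.256 to 0.052). The labels state no pairing, so the main fit ignored the numbers, as did every SE, interval and adjusted p not marked as from the block. The replicate block was run as an alternative, in which 2348 genes passed, beside 1093 in the main fit. Others were 3 scalings, block with scaling, a filter on dim genes, the mean of probe sets, a trended and robust prior, and each array left out.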

Additional observations from a re-analysis of the deposited data

How the results depend on the processing

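Each of the 4 differences kept its direction under all alternatives run and moved by less than the larger group SD; AEN alone lost its place past the threshold after median centring and with the trended and robust prior. Leave-one-out differences ran from 1.24 to 1.76 for PMAIP1, 0.46 to 0.66 for AEN, -0.98 to -0.82 for TP53INP1 and -1.39 to -0.96 for PLK2. The count of genes past the threshold, 1093, was 2348 with the replicate block and 2010 with the replicate block and quantile normalization, and between 91 (without siControl 2) and 2620 (without siControl 3) with 1 array left out; leaving out siControl 1 gave 157, leaving out siCSRP2 2 gave 194 and leaving out siCSRP2 3 gave 285. Of the p53 targets, 2 were called higher with the replicate block and quantile normalization, and between 0 and 2 with 1 array left out (2 without siControl 3). The count of targets called lower, 1, was 0 after quantile normalization, 0 after cyclic loess, 2 after median centring, 4 with the replicate block, 2 with the dimmer genes left out, and between 0 and 4 with 1 array left out: 0 without siControl 1, siControl 2 or siCSRP2 2 and 4 without siControl 3. Their median stayed below 0 under all settings, but the median of all genes moved with the setting too. With the dimmer genes left out it was -0.16 for the targets and -0.15 for all genes. After median centring it was -0.15 for the targets and -0.07 for all genes. All genes that rose numbered 119, and 210 after quantile normalization, 197 after cyclic loess and 398 with the block; those that fell numbered 974, and 1471 after median centring and 1950 with the block. The block changed the calls named beside each list and ended none of the calls among the listed genes. No background level was at hand, so the dim signals of TP53INP1, BCL2L11, TRIAP1 and PLK4 in siCSRP2 limit what their folds can show.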
